A study of Mus musculus with 6 samples.

Results

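The Hedgehog co-receptor gene *Gas1* and 9 further genes of the Hedgehog pathway were examined in embryoid bodies (EBs) with and without functional EVX1. The 10 genes were taken by symbol from a table of 23353 genes and all 10 were found: the co-receptors *Gas1*, *Boc* and *Cdon*, the receptor *Ptch1*, the signal transducer *Smo*, the transcription factors *Gli1*, *Gli2* and *Gli3*, the ligand *Ihh* and the inhibitor *Hhip*. EBs are aggregates of differentiating mouse embryonic stem cells (mESCs). The wildtype group was the W9.5 mESC line (n = 3) and the EVX1-Δfs group was clone 14 (n = 3), a W9.5-derived line in which CRISPR/Cas9 left a different small frameshift deletion in each *Evx1* allele, in the part of exon 2 that encodes the homeodomain. Both groups were differentiated for 4 days (D4) in medium with serum and without the self-renewal cytokine LIF, and poly(A)-selected RNA was sequenced on the Ion Proton. All EVX1-Δfs libraries came from the same clone, so an effect of the deletions and a property of that clone cannot be told apart. In whole EBs, fewer cells of a type and less RNA per cell cannot be told apart either.

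Hedgehog ligands bind Patched, which relieves its block of Smoothened, and Smoothened at the primary cilium then directs GLI proteins to activate or repress their target genes. GAS1, CDON and BOC are cell-surface proteins that bind the ligand alongside Patched and promote signalling in the embryo. *Ptch1*, *Gli1* and *Hhip* are themselves induced by the pathway and are commonly read as a measure of its activity. In the gastrulating mouse embryo Indian hedgehog is made by visceral endoderm, and later Sonic hedgehog by the notochord and floor plate.

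The guide that directed the *Evx1* edit is shown because it defines the EVX1-Δfs group. Its site lies at chr6:52265847-52265866 on the plus strand of NCBIM37 (mm9), in exon 2 of 3 of *Evx1*, and is given here 5′ to 3′ with the adjoining PAM in capitals.
Evx1 guide site: ccagatgcgccgataccgcaCGG
The *Evx1* transcript itself was at 2358, 2176 and 2400 normalized counts in the wildtype libraries (always in the order of replicates 1, 2 and 3) and at 2354, 2516 and 2012 in those of EVX1-Δfs. The ranges overlapped, with a log2 fold change of -0.02 ± 0.11 (SE; limma adjusted p = 0.950). Small frameshift deletions need not lower a transcript, so this level is no check of the genotype labels.

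The 6 libraries held 7597879 to 9914471 reads assigned to genes. A normalized count is the number of reads of a gene divided by a factor for its library, and each fold change sets EVX1-Δfs against wildtype as a difference of log2(normalized count + 1), with the SE of the limma fit. Of 13136 genes tested, 387 (2.95%) were lower and 273 (2.08%) were higher in EVX1-Δfs EBs at an adjusted p under 0.05. Of the 10 Hedgehog genes, 9 passed the filter on low values and 1 of these, *Gas1*, was called lower, with 0 called higher. The series' design text describes each replicate as a side-by-side differentiation of both lines, and with the replicate number as a block the backgrounds were 1.11% lower and 0.579% higher, with *Gas1* again the 1 member called (adjusted p = 0.0067). At an unadjusted p under 0.05, 2 of the 9 members passed, *Gas1* and *Boc*, against 23.1% of all genes tested, a share close to that of the members. The median log2 fold change was -0.23 over the 9 tested members and 0.00022 over all genes tested. With GC and length trends removed, the middle member by fold change, *Smo* in both fits, was at -0.09. The median over all genes in that fit was -0.02.

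*Gas1*, a GPI-anchored protein that binds Hedgehog ligands at the cell surface, fell in EVX1-Δfs EBs to 34.6% of its wildtype level. It is a gene of a single annotated exon at chr13:60275766-60278726 on the minus strand (NCBIM37). The wildtype libraries held 283, 332 and 477 normalized counts and the EVX1-Δfs libraries 121, 162 and 94.3. The highest EVX1-Δfs library lay well under the lowest wildtype library, and within the wildtype group replicate 3 was the highest. The means were 364 ± 101 and 126 ± 34.3 (SD, n = 3 each), a 2.89-fold lower level, with a log2 fold change of -1.52 ± 0.19 (95% interval -1.92 to -1.12, limma adjusted p = 8.15e-05). Each value rested on 99 to 417 reads. Ordered from the lowest fold change, *Gas1* stood at place 14 of the 13136 genes tested, and by adjusted p at place 10. Its fall was past the threshold in each of the 17 alternative fits, with log2 fold changes from -1.72 to -1.31 and adjusted p values from 1.73e-09 to 0.0067.

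**Figure D1:**
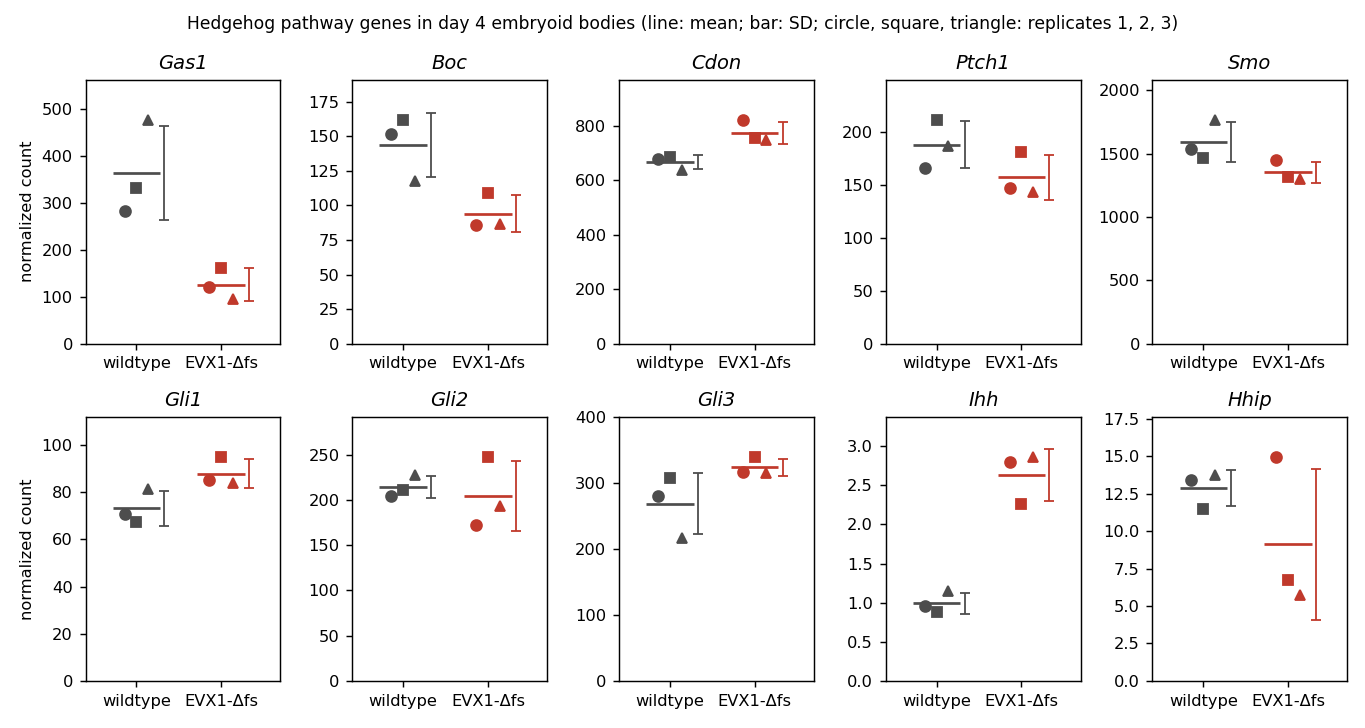
Normalized counts (y axis, each panel on its own scale from 0) of the 10 Hedgehog genes in the wildtype and EVX1-Δfs libraries (x axis), with the mean as a line and the SD as a bar; circles, squares and triangles are replicates 1, 2 and 3. *Gas1* was at 283 to 477 in wildtype and 94.3 to 162 in EVX1-Δfs libraries, while most other panels show groups that lie close together.

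The 250 bases before the *Gas1* start are shown as the promoter of the member that fell. The sequence is from RefSeq, lies at chr13:60177536-60177785 of GRCm38.p6, a later build than that of the other positions, and reads 5′ to 3′ along the minus strand, with a CCAAT motif in capitals whose first base is 68 bases before the start.
Gas1 promoter: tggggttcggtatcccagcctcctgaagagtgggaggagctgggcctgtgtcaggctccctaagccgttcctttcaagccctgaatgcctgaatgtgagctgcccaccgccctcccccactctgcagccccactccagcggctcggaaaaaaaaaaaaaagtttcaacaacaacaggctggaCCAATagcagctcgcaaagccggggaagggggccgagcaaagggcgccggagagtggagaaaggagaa
RefSeq promoter windows, from 250 bases before to 50 bases after a start, were found for 8 of the 10 members, all but *Boc* and *Gli1*. They were searched on both strands for GACCACCCA, a motif bound by GLI factors, for TAATTA, a core bound by many homeodomain proteins, and for CCAAT. GACCACCCA was in 0 of the 8 windows and in 0.253% of 32851 promoter windows, and TAATTA was in 0 of the 8 and in 5.29% of all. CCAAT was in the windows of *Gas1* and *Cdon* and in 37.4% of all windows. These matches describe letters in these windows only.

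*Boc*, an immunoglobulin-family co-receptor, was lower in every EVX1-Δfs library but did not pass the threshold. Normalized counts of *Boc* were 152, 162 and 118 in wildtype and 85.9, 109 and 86.7 in EVX1-Δfs EBs. The groups did not overlap, though wildtype replicate 3 and EVX1-Δfs replicate 2 stood close to each other. The log2 fold change was -0.61 ± 0.18 (95% interval -0.98 to -0.23, limma adjusted p = 0.0538), and -0.50 with GC and length trends removed (0.138). It was past the threshold only without wildtype replicate 3 (adjusted p = 0.0325) or without EVX1-Δfs replicate 2 (adjusted p = 0.0481), and the adjusted p ran from 0.0325 to 0.173 over the 16 alternatives that gave one.

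*Cdon*, the co-receptor most closely related to BOC, had the opposite sign. Wildtype libraries held 678, 684 and 637 normalized counts, compared with 822, 754 and 748 in EVX1-Δfs EBs. All EVX1-Δfs libraries were above all wildtype libraries, by a small margin. The log2 fold change was 0.22 ± 0.11 (95% interval -0.02 to 0.45, limma adjusted p = 0.251), so an increase of that size was not separated from 0. With GC and length trends removed the log2 fold change was 0.16 (limma adjusted p = 0.457).

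Levels of different genes can be compared only per length of transcript. Per kilobase (kb) of annotated exons, *Gas1* was the highest of the co-receptors in each wildtype library, at 123 ± 34.1 normalized counts per kb, against 86.4 ± 3.35 for *Cdon* and 32.3 ± 5.18 for *Boc* (SD, n = 3). In each EVX1-Δfs library *Cdon* was the highest, at 100.4 ± 5.28 per kb, against 42.6 ± 11.6 for *Gas1* and 21.1 ± 2.99 for *Boc*. By this measure the order of *Gas1* and *Cdon* was reversed between the groups, while *Boc* was the lowest in all 6 libraries. The lengths count all annotated exons, 2.96 kb for *Gas1* and 7.71 kb for *Cdon*, and the transcripts expressed in EBs may be shorter. The order within a group depends on these lengths, and the change of the ratio between groups does not.

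The ratio of *Gas1* to *Cdon* per kb was 1.09, 1.26 and 1.95 in wildtype and 0.385, 0.561 and 0.329 in EVX1-Δfs EBs. *Gas1* made up 50.3 ± 8.29% of the summed wildtype co-receptor level but 25.7 ± 4.83% of that of EVX1-Δfs (SD, n = 3). The summed level of the 3 genes was 242 ± 26.6 per kb in wildtype and 164 ± 14.6 per kb in EVX1-Δfs EBs, without overlap between the groups. *Gas1* is part of that sum, and of the others *Boc* was lower and *Cdon* higher, so the lower sum is no result apart from *Gas1*. The shares and the sums also depend on the annotated exon lengths. The ratios, shares and sums are given as descriptions, with no test, and no measure of co-receptor protein was made.

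**Figure D2:**
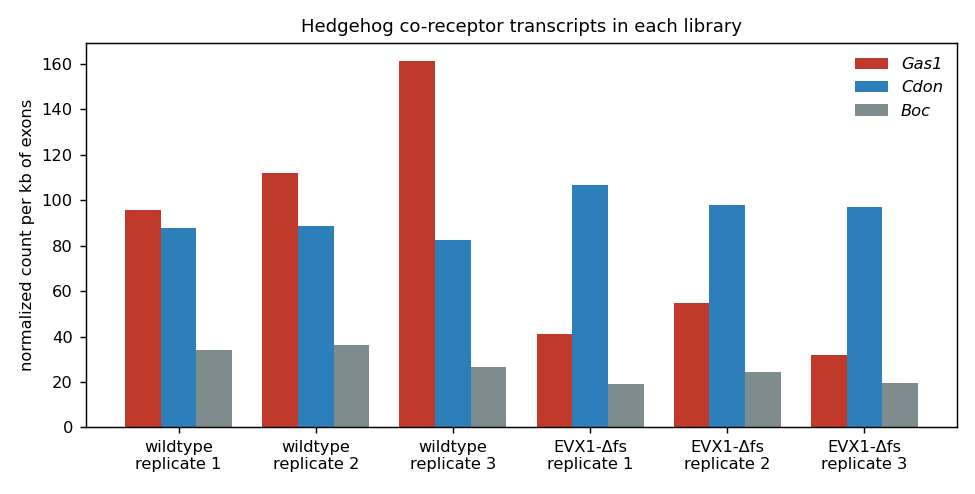
Normalized counts per kb of exons (y axis, bars from 0) of *Gas1*, *Cdon* and *Boc* in each of the 6 libraries (x axis). *Gas1* is the tallest bar in each wildtype library and *Cdon* in each EVX1-Δfs library.

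*Ptch1*, the receptor that holds Smoothened off and a direct target of the pathway, was not called. Its normalized counts were 166, 211 and 187 in wildtype and 148, 182 and 143 in EVX1-Δfs EBs. EVX1-Δfs was the lower library in 3 of 3 pairs of equal replicate number, but the groups overlapped. On the log2 scale the fold change was -0.26 ± 0.16 (95% interval -0.59 to 0.07, limma adjusted p = 0.340).

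*Smo*, the receptor-like protein that passes the signal on, was the most abundant member per kb, with 421 ± 41.6 in wildtype against 358 ± 21.8 in the EVX1-Δfs group (SD, n = 3). Its normalized counts were 1537, 1465 and 1766 in wildtype and 1447, 1315 and 1296 in EVX1-Δfs EBs. The groups did not overlap, but EVX1-Δfs replicate 1 was just under wildtype replicate 2. EVX1-Δfs differed from wildtype by a log2 fold change of -0.23 ± 0.11 (95% interval -0.46 to 0.00, limma adjusted p = 0.223), which was -0.09 with GC and length trends removed (0.720).

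*Gli1*, a GLI activator and widely used target gene of the pathway, was not called. Normalized counts of *Gli1* were 70.8, 67.3 and 81.3 in wildtype and 84.96, 94.7 and 83.9 in EVX1-Δfs EBs. Every EVX1-Δfs library was above every wildtype library, with wildtype replicate 3 close below. This is a log2 fold change of 0.26 ± 0.19 (95% interval -0.13 to 0.66, limma adjusted p = 0.423), on 71 to 91 reads per library, and 0.41 with GC and length trends removed (0.251). In the annotation 55 exon bases of *Gli1* are shared with *Arhgap9* on the opposite strand. The study states HTSeq with its standard settings, which count by strand.

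*Gli2*, the main GLI activator, had overlapping groups. Its normalized counts were 204, 211 and 228 in wildtype and 172, 247 and 193 in EVX1-Δfs EBs, the EVX1-Δfs group holding both the highest and the lowest library. The log2 fold change was -0.08 ± 0.16 (95% interval -0.41 to 0.24, limma adjusted p = 0.788).

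*Gli3*, which acts mainly as a repressor in the absence of ligand, was at 281, 308 and 218 normalized counts in wildtype and at 317, 339 and 316 in EVX1-Δfs EBs. The groups did not overlap, and wildtype replicate 3 was the lowest library. Its log2 fold change was 0.28 ± 0.14 (95% interval -0.02 to 0.58, limma adjusted p = 0.239), and 0.205 with GC and length trends removed (0.436). The *GLI* genes per kb lay within a narrow span in wildtype, from 19.3 ± 1.93 for *Gli1* to 31.2 ± 1.81 for *Gli2*, with *Gli3* at 28.05 ± 4.84 (SD, n = 3), the last pair not apart beyond its spread.

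*Hhip*, a membrane protein that binds and sequesters ligand and is induced by the pathway, was near the limit of detection, with 6 to 16 reads per library. Normalized counts of *Hhip* were 13.4, 11.5 and 13.7 in wildtype and 14.9, 6.77 and 5.72 in EVX1-Δfs EBs. EVX1-Δfs replicate 1 was the highest of all and the other EVX1-Δfs libraries the lowest. For *Hhip* the log2 fold change was -0.56 ± 0.44 (95% interval -1.48 to 0.36, limma adjusted p = 0.475), so at this depth it was not separated from 0.

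*Ihh*, the ligand of the early embryo, did not pass the filter on low values and was not tested. It had 1 read in each wildtype library (0.957, 0.885 and 1.15 normalized counts) and 2 or 3 reads in each EVX1-Δfs library (2.80, 2.26 and 2.86). The EVX1-Δfs values were all above the wildtype values, but with 3 reads or fewer everywhere no fold is given. The ligands *Shh* and *Dhh* were at a similarly low level, at most 3.54 and 6.77 normalized counts in any library. Ligand transcripts were thus at a few reads per library in both groups.

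**Figure D3:**
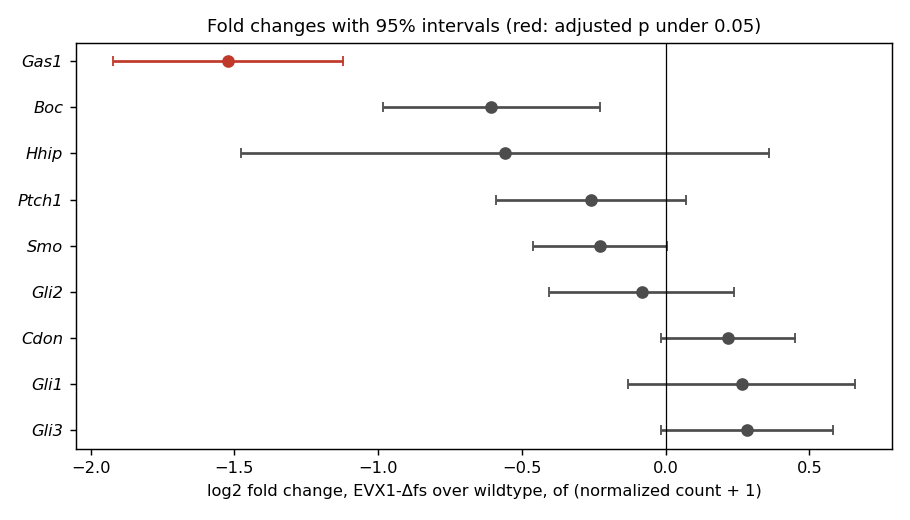
Log2 fold change of (normalized count + 1), EVX1-Δfs over wildtype (x axis), of the 9 tested Hedgehog genes (y axis), with 95% intervals of the limma fit as bars and n = 3 libraries a group. The *Gas1* interval, from -1.92 to -1.12, is the only one in red (adjusted p under 0.05), and 7 of the 9 intervals span 0.

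Non-overlap of the groups, a looser measure, was seen in 3 members that were lower (*Gas1*, *Boc* and *Smo*) and 3 that were higher (*Cdon*, *Gli1* and *Gli3*) of the 9 tested. Over all genes tested it was seen for 14.7% lower and 12.2% higher. Over the 6 libraries, Pearson's r with *Gas1* on the log2 scale was 0.78 for *Boc*, 0.79 for *Ptch1*, 0.84 for *Smo* and 0.48 for *Gli2*, and -0.89 for *Cdon*, -0.75 for *Gli3* and -0.55 for *Gli1*. After each group's mean was removed, r was -0.09 for *Boc* and 0.86 for *Gli1*, both of the opposite sign to the r over all libraries. The other 5 kept their sign, at 0.62 for *Ptch1*, 0.54 for *Smo*, 0.68 for *Gli2*, -0.37 for *Cdon* and -0.44 for *Gli3*. These values describe 6 libraries that share 2 genotypes.

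A wider list of 74 Hedgehog pathway genes, members included, held 58 tested genes, of which 5 were called lower and 2 higher, beside 2.95% lower and 2.08% higher over all genes tested, and the median log2 fold change was -0.04. With the replicate block, 4 were lower and 1 higher, beside 1.11% and 0.579% over all genes. All 7 calls fell in 2 roles: *Gas1* among the 8 tested receptors and ligand-binding genes, and 6 genes among the 14 tested of 26 listed targets. In the other roles 0 genes were called, over 4 tested genes of ligand processing and release, 16 of the signal transducer and its regulators, 3 GLI factors and 17 of cilium transport (limma, adjusted p under 0.05). At an unadjusted p under 0.05 these roles held 0, 5, 0 and 5 genes, beside 23.1% over all genes tested, and edgeR and DESeq2 called 8 genes over the whole list. That list was chosen with earlier results of these data known, so the shares over all genes are no even background for it.

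**Figure D4:**
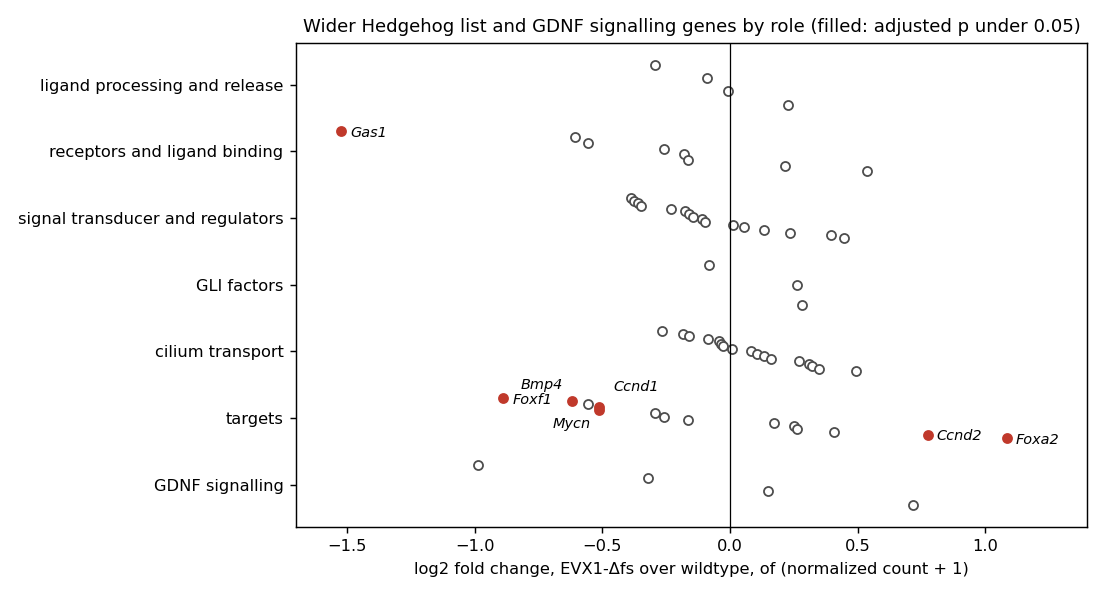
Log2 fold change of (normalized count + 1), EVX1-Δfs over wildtype (x axis), of the tested genes of the wider Hedgehog list and of GDNF signalling, by role (y axis; height within a role only separates points). Filled points passed an adjusted p under 0.05: *Gas1* among the receptors, 6 targets, and 0 genes in the other roles.

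Among the targets, genes that respond to Hedgehog in at least 1 tissue and mostly to other pathways too, 4 fell and 2 rose of the 14 tested, beside 2.95% and 2.08% over all genes. These targets too were chosen with earlier results of these data known, so the comparison of shares is no test. *Foxf1*, a forkhead factor of lateral mesoderm listed under its older name Foxf1a, was at 179, 350 and 164 normalized counts in wildtype and at 110, 113 and 129 in EVX1-Δfs EBs. Wildtype replicate 2 was far above the rest of its group, and the groups did not overlap. The log2 fold change was -0.89 ± 0.21 (limma adjusted p = 0.0183). With the replicate block the call was lost in limma (adjusted p = 0.0574) but kept in DESeq2 (adjusted p = 0.0304). It was also lost with GC and length trends removed (limma adjusted p = 0.150) and on leaving out wildtype replicate 2 (0.0893, with a log2 fold change of -0.55). Leaving out the EVX1-Δfs libraries of replicate 1 (0.0679) or 2 (0.0632) lost the call as well.

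*Bmp4*, a BMP ligand of mesoderm, was at 1094, 1489 and 1126 normalized counts in wildtype and at 626, 855 and 943 in EVX1-Δfs EBs, without overlap. Its log2 fold change was -0.62 ± 0.14 (limma adjusted p = 0.0163), and the call was lost without wildtype replicate 2 (0.0629) or EVX1-Δfs replicate 1 (0.105) and with GC and length trends removed (0.0530). *Mycn*, a growth-promoting transcription factor, was at 506, 704 and 595 in wildtype and at 383, 498 and 382 in EVX1-Δfs libraries. Its groups did not overlap but came close. Its log2 fold change was -0.51 ± 0.14 (limma adjusted p = 0.0372), and the call was lost without wildtype replicate 2 (0.130) or 3 (0.0682), without EVX1-Δfs replicate 1 (0.138) or 3 (0.145), and with GC and length trends removed (0.125).

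The D-type cyclins, which drive entry into the cell cycle, moved in opposite directions. *Ccnd1* was at 2662, 3150 and 2835 normalized counts in wildtype and at 1937, 1980 and 2128 in EVX1-Δfs EBs, a log2 fold change of -0.51 ± 0.11 (limma adjusted p = 0.0107), past the threshold except without EVX1-Δfs replicate 1 (0.0546). *Ccnd2* was at 666, 696 and 606 in wildtype and at 1114, 1106 and 1141 in EVX1-Δfs libraries, a log2 fold change of 0.77 ± 0.11 (limma adjusted p = 2.88e-04). Neither gene had overlapping groups, and *Ccnd2* was past the threshold in every alternative fit.

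*Foxa2*, a forkhead factor of endoderm, notochord and floor plate, was at 40.2, 32.7 and 64.1 normalized counts in wildtype and at 102, 115 and 71.5 in EVX1-Δfs EBs. The groups did not overlap, EVX1-Δfs replicate 3 being just above wildtype replicate 3. Its log2 fold change was 1.09 ± 0.25 (limma adjusted p = 0.0159), and the call was lost with the replicate block in limma (0.0667) and without EVX1-Δfs replicate 1 (0.0690) or 2 (0.0721). *Jag1*, a Notch ligand, was not called (log2 fold change 0.41, limma adjusted p = 0.0696).

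In the remaining roles, the largest absolute changes were below the threshold. *Scube3* and *Scube2*, secreted proteins that help release ligand, had log2 fold changes of -0.29 (limma adjusted p = 0.331) and 0.23 (0.570). *Cul3*, a ubiquitin ligase scaffold acting on GLI proteins, was at 0.44 (0.0697), past the threshold without wildtype replicate 2 (0.0419), and *Dzip1*, a ciliary protein, at 0.40 (0.172). Both are listed with the signal transducer and its regulators, a role whose 16 tested genes had a median log2 fold change of -0.13. Without overlap, 4 genes of that role were lower and 2 higher, beside 14.7% and 12.2% over all genes tested. *Dync2h1*, the motor of retrograde transport in the cilium, was at 0.49 (0.0917), and *Ift80*, an intraflagellar transport protein, at 0.35 (0.155). With GC and length trends removed the log2 fold changes of *Cul3*, *Dync2h1* and *Ift80* were 0.12, 0.22 and 0.05, and that of *Scube2* was 0.06 without wildtype replicate 1.

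*Lrp2*, an endocytic receptor that binds SHH, was chosen after its values were seen. It was at 810, 696 and 544 normalized counts in wildtype and at 902, 791 and 1317 in EVX1-Δfs EBs, EVX1-Δfs replicate 3 standing above the other libraries and the groups overlapping. The log2 fold change was 0.54 (limma adjusted p = 0.0523), and it was past the threshold in 7 alternatives, among them edgeR (0.0386), DESeq2 (0.0363) and the fits without wildtype replicate 1 (0.0276) or EVX1-Δfs replicate 2 (0.0382). By contrast, the adjusted p was 0.127 with the replicate block in limma, 0.450 with the block in DESeq2 and 0.139 with GC and length trends removed, and without EVX1-Δfs replicate 3 the log2 fold change was 0.32 (0.290).

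Markers of 7 cell types that an EB can hold were read beside these genes, from lists chosen with earlier results of these data known. Over all genes tested, 2.95% were called lower and 2.08% higher, or 1.11% and 0.579% with the replicate block. Summed normalized counts of 12 posterior and paraxial mesoderm markers were 6932 to 8711 in wildtype and 4289 to 5540 in EVX1-Δfs libraries, and 6 of the 7 tested markers were called lower (4 with the replicate block, the calls of *T* and *Dll1* being lost at adjusted p = 0.0566 and 0.0729). Summed counts of 8 haematoendothelial markers were 3100 to 4133 and 1837 to 2084, with 3 of 8 lower, with and without the block. *T* was the largest part of the mesoderm sums and *Kdr* of the haematoendothelial sums. Both sums were lower in every EVX1-Δfs library, as *Gas1* was, and their part in the *Gas1* result was not tested.

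The 6 definitive and anterior endoderm markers, *Foxa2* among them, summed to 531 to 764 in wildtype and 713 to 1091 in EVX1-Δfs libraries. *Cer1* made up much of the EVX1-Δfs sums, at 431, 406 and 294 normalized counts, against 24.9, 26.5 and 50.4 in wildtype. *Sox17* and *Foxa2* also had higher means in EVX1-Δfs EBs, and *Cxcr4*, *Hhex* and *Gsc* had lower means. Of the 6 markers, 3 were called higher and 1 lower, beside 2.08% and 2.95% over all genes tested. With the replicate block in limma, 1 was higher and 1 lower, *Sox17* being at adjusted p = 0.0564 and *Foxa2* at 0.0667. For visceral endoderm, the source of *Ihh* in the embryo, 9 of 10 markers were found and 4 tested, with 0 called by limma. At an unadjusted limma p under 0.05 were 2 of these, *Apoe* and *Sox7*, both lower, beside 23.1% of all genes tested. The visceral endoderm sums, 5332 to 6499 and 4730 to 5094, were nearly all *Apoe*, while *Afp* and *Ttr*, which define the tissue, reached at most 1.91 normalized counts. For notochord and floor plate, sums were 42.4 to 45.9 and 30.5 to 49.6, with *Shh* and *Noto* near 0 and 0 of 1 tested marker called, and that marker, *Foxj1*, had an unadjusted p above 0.05. The 7 pluripotency markers summed to 8524 to 13260 and 10348 to 12732, mostly *Pou5f1*. Of these 7, 6 were higher without overlap, beside 12.2% of all genes tested, and 5 had an unadjusted limma p under 0.05, beside 23.1%. The median log2 fold change of the 7 was 0.41, and 1, *Fgf5*, was called higher, beside 2.08%. The 6 neurectoderm markers summed to 2335 to 3116 and 2708 to 2879, mostly *Nes*, with 1 of 4 tested, *Sox3*, called lower, beside 2.95%. The median log2 fold change of the 4 was 0.20, and 3 had an unadjusted limma p under 0.05, beside 23.1%. These were *Sox3*, which was lower, and *Pax6* (log2 fold change 1.31) and *Otx2* (0.39), which were higher but not called. With the replicate block neither *Fgf5* (adjusted p = 0.0624) nor *Sox3* (0.0864) was called.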

How the data were processed

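W9.5 and EVX1-Δfs EBs were sequenced at D4. The study's methods state mapping to mm9 with TopHat2 and then TMAP, counting with HTSeq, and DESeq2. The deposited signal values are gene counts that the authors divided by a factor for each library. Whole reads were recovered for 100% of values within 0.01 read, and edgeR and DESeq2 on these reads called 687 and 801 genes. No column of values was left out. Groups came from the sample titles.

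Values were tested with limma 3.58.1 (R 4.3.3) with a mean-variance trend on log2(normalized count + 1), for genes that reached 10 normalized counts in 3 or more libraries, with Benjamini-Hochberg adjustment over all genes tested. Genes were called at an adjusted p under 0.05. The deposited values are scaled and not raw counts, so count tests (edgeR 4.0.16, DESeq2 1.42.0) served as alternatives, with pseudocounts of 4 and 16, no filter, TMM and upper-quartile scaling, a replicate block, removal of GC and length trends, and leaving out each library. The scripts were tested on simulated data.

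Replicate numbers were taken to pair the libraries, since the series' design text calls each replicate a side-by-side differentiation of both lines with its own set-up day. The sample titles give the number alone and do not state that equal numbers share a day. Deviations from the group means correlated within pairs at 0.111, 0.00933 and -0.101 over 13136 genes. Libraries of a group are separate differentiations of the same line, so p-values measure the spread between differentiations.

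Positions and exon lengths are from GENCODE on NCBIM37, with 21983 of 23353 symbols matched. The gene members, the wider list and the marker lists were chosen with earlier results of these data known. Named genes were the 10 members, each called gene of the wider and GDNF lists, the 2 uncalled genes of largest absolute fold change in each role, and the 5 genes most correlated with *Gas1* at a mean normalized count of at least 50. Intervals cover the spread between libraries, and *Disp1* was listed at 0 in all libraries.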

Additional observations from a re-analysis of the deposited data

How the results depend on the processing

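*Gas1* was past the threshold in all 17 alternatives, with log2 fold changes between -1.72 (EVX1-Δfs replicate 2 left out) and -1.31 (wildtype replicate 3 left out). Members called numbered 1 throughout, and 1 to 2 when single libraries were left out, *Boc* being added without wildtype replicate 3 or without EVX1-Δfs replicate 2. *Gli2* changed sign to 0.0176 with GC and length trends removed, with and without the block, and to 0.0315 without EVX1-Δfs replicate 1. The cause was not tested. Leave-one-out log2 fold changes ran from -0.743 to -0.515 for *Boc*, 0.174 to 0.241 for *Cdon*, -0.365 to -0.171 for *Ptch1*, -0.286 to -0.151 for *Smo*, 0.207 to 0.342 for *Gli1*, -0.229 to 0.0315 for *Gli2*, 0.138 to 0.388 for *Gli3* and -0.939 to -0.315 for *Hhip*. Of 149 values over the 9 tested members, 144 kept direction and side of the threshold.

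The wider list held 7 called genes, against 4 with GC and length trends removed, with and without the block, and 2 (EVX1-Δfs replicate 1 left out) to 8 (wildtype replicate 1 left out). Over all genes, 660 were called, against 222 with the replicate block in limma, 284 with the block in DESeq2, 280 with GC and length trends removed and 200 with both that correction and the block, and 219 (EVX1-Δfs replicate 3 left out) to 645 (wildtype replicate 2 left out). It was also lower by over 1.5 times without EVX1-Δfs replicate 1 (227), wildtype replicate 3 (373) or wildtype replicate 1 (439). Upper-quartile scaling gave 370 higher and 325 lower (53.2% higher) against 273 and 387 (41.4% higher). Apart from the calls named with their values above, the block changed no other call of a member, of a named gene of the wider or GDNF list, or of *Bag3*. Depth limited *Hhip* and *Ihh*, at 1 to 16 reads per library. Fold change and GC content were related over genes (Spearman -0.46).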

Other observations

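GAS1 is also a distant relative of the GDNF co-receptors, so that family was examined, with the list chosen with earlier results of these data known. Of 7 listed genes of GDNF signalling 4 were tested, and 0 were called by limma (1 at an unadjusted p under 0.05, beside 23.1% of all genes tested). That gene, *Gfra2*, the neurturin co-receptor, was at 42.1, 30.1 and 35.5 normalized counts in wildtype and at 21.5, 21.4 and 11.4 in EVX1-Δfs EBs. The groups did not overlap, and the log2 fold change was -0.99 (limma adjusted p = 0.0685). Nor did the groups overlap for *Ret*, which was lower, and *Gfra4*, which was higher. Over all genes tested 14.7% were lower and 12.2% higher without overlap. *Gfra4*, the persephin co-receptor, had a log2 fold change of 0.72 (limma adjusted p = 0.302).

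The genes whose levels most closely followed *Gas1* over the 6 libraries, of 10629 compared, were *Akt2* (Pearson's r = 0.996), *Bag3* (0.995), *Vps4a* (0.995), *Tmem98* (0.994) and *Pptc7* (0.994). With group means removed, r was 0.986 for *Akt2* and 0.962 for *Tmem98*, with the other 3 between these. Their log2 fold changes were smaller than that of *Gas1*, at -0.27, -0.66, -0.16, -0.43 and -0.12, and *Bag3* alone was called (limma adjusted p = 0.0038, 0.0329 with the replicate block). The high r describes a shared order of 6 libraries and was picked from many genes.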
